A study of Mus musculus with 9 samples.

Results

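Cytochrome P450 family 2 is a large family of drug- and steroid-metabolising monooxygenases of the mouse liver. In the deposited liver count tables its genes were taken as every symbol made of Cyp2, a subfamily letter and a number, which gave 48 of the 24421 listed genes, in 13 subfamilies. RNA from liver tissue of C57BL/6J mice aged 5 weeks was sequenced in 9 libraries, 5 from wildtype control littermates (WT) and 4 from mice with O-GlcNAc transferase deleted (OGT-deficient), all fasted for 6 h. The design text names both sexes. The sources used here do not state the sex of each mouse, the driver or cell type of the deletion, or the library kit. The counts showed the Y-linked gene Ddx3y in all 9 libraries and little Xist, with values given below. The text gives as many mice as libraries, so each library was taken as 1 mouse.

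P450 enzymes sit in the membrane of the endoplasmic reticulum, carry a heme and receive electrons from the reductase encoded by Por. Family 2 enzymes oxidise drugs, solvents, steroid hormones, bile acids, retinoids and polyunsaturated fatty acids, and hepatocytes hold most of them in the body. Many lie in clusters of recently duplicated genes, and several are known for sex-dependent, zonal or drug-inducible expression, the last through the nuclear receptors CAR (gene Nr1i3) and PXR (gene Nr1i2).

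Several members are near-identical copies, and the sequences below show how little separates them. Coding sequences were taken from GENCODE mouse release 21 (GRCm38). Cyp2c40, Cyp2c67, Cyp2c68 and Cyp2c69 lie close together on the minus strand of chromosome 19, and 66 of their 1473 aligned coding positions differ among the 4 genes. The 60 coding bases in exon 2 with the most differences are shown because reads can be told apart only by the capitals, which mark positions that are not the same in all 4 genes.
Cyp2c40 (chr19:39807523-39807582, minus strand): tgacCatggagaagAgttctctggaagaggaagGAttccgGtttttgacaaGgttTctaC
Cyp2c67 (chr19:39643600-39643659, minus strand): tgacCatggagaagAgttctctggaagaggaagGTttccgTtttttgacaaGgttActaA
Cyp2c68 (chr19:39739384-39739443, minus strand): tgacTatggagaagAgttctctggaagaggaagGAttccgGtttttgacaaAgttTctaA
Cyp2c69 (chr19:39881454-39881513, minus strand): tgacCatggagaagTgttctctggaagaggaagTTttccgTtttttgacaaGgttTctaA
Even here 8 of 60 positions differed, and the longest run without any difference among the 4 spanned 113 coding bases. Cyp2a4 (chr7:26307169-26315088, plus strand) and Cyp2a5 (chr7:26835305-26843548, plus strand) differ at 23 of 1482 coding positions, and share a run of 216 identical bases. Their most distinct 60 coding bases, also in exon 2, hold 3 differences, in capitals.
Cyp2a4 (chr7:26307666-26307725, plus strand): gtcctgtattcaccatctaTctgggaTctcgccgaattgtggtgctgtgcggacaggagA
Cyp2a5 (chr7:26835811-26835870, plus strand): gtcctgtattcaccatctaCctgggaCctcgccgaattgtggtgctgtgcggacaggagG
Read against the values below, these stretches show why a gene count in these sets rests on few positions. Reads that align to several places entered no gene count. The share of all 50-base stretches of a gene's longest transcript that also occur in another listed gene was therefore recorded for 47 of the 48 members and is called the shared part. It was 72.1% for Cyp2c40, 54.8% for Cyp2c69, 52.8% for Cyp2c67 and 43.3% for Cyp2c68. It was 36.1% for Cyp2a4, 31.0% for Cyp2a5 and 37.1% for Cyp2d10, and 0% for Cyp2c44, Cyp2c70 and Cyp2f2. Values and calls of members with a shared part over 20% are uncertain, which holds below without being repeated for each.

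Counts assigned to genes were 32337861 to 54130901 per library, and WT 1 and WT 2 were the deepest. The targeted gene Ogt measured 51.1 to 73.1 CPM in WT and 14.3 to 20.6 CPM in OGT-deficient libraries, where CPM are counts relative to the TMM-scaled library total. Non-unique alignments per assigned read were 0.314, 0.442, 0.624, 1.02 and 0.955 from WT 1 to WT 5 and 0.205 to 0.224 among OGT-deficient libraries, and their part in the values of near-identical members was not tested.

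The summed level of the family was lower in OGT-deficient liver, and Cyp2e1, Cyp2f2, Cyp2c29 and Cyp2j5 were among the members that fell most. All 48 genes together reached 18707, 20727, 18952, 21753 and 20582 CPM across WT 1 to 5, and 7725, 8592, 7884 and 9509.6 CPM across OGT-deficient 1 to 4. The groups did not overlap, and the mean went from 20144 ± 1285 (SD, n = 5) to 8428 ± 814 CPM (SD, n = 4), 2.39 times lower. This ratio depends on the TMM scaling. Without it, the family held 1.70 to 1.94% of the counts assigned to genes in WT and 0.917 to 1.03% in OGT-deficient libraries. Of the 36 members with enough counts to be tested, 23 fell and 3 rose in edgeR's quasi-likelihood test at an adjusted p under 0.05, and 10 did not pass. Of all 14104 tested genes 29.4% fell, 31.6% rose and 61.1% were called in either direction. Members both called and at least 2-fold lower numbered 13, against 6.59% of all genes, and 3 were called and at least 2-fold higher, against 14.4%. The median log2 fold change was -0.88 over the tested members and 0.02 over all tested genes. OGT-deficient libraries lay wholly below WT for 19 members and wholly above for 3, against 25.0% and 26.2% of all genes.

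The composition of the family also differed between the groups. Cyp2e1 held 39.8 ± 1.96% of the summed family level in WT and 18.4 ± 1.71% in OGT-deficient liver. The Cyp2c genes held 18.6 ± 3.08% and 31.3 ± 2.05%, and the Cyp2d genes 23.7 ± 0.974% and 32.0 ± 3.41%. For each of these 3 shares the groups did not overlap. The Cyp2c and Cyp2d shares were higher in OGT-deficient liver although the summed levels of both subfamilies were lower there. The mean sums of WT and OGT-deficient libraries were 3748 and 2627 CPM for Cyp2c, and 4776 and 2715 CPM for Cyp2d.

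**Figure D1:**
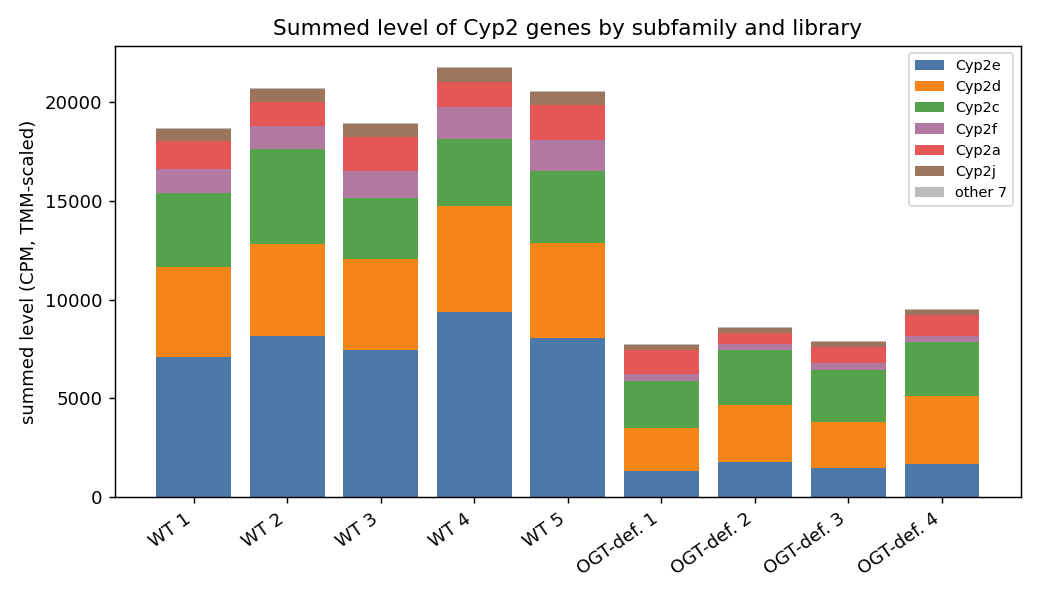
Summed level (CPM) of the Cyp2 genes in each of the 9 libraries, as bars stacked by subfamily. The 5 WT bars stand between 18707 and 21753 CPM and the 4 OGT-deficient bars between 7725 and 9509.6 CPM, and the Cyp2e segment (Cyp2e1 alone) shows the largest fall in CPM.

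These are bulk samples, in which fewer cells of a type and less RNA per cell cannot be told apart. Of 7 tested hepatocyte markers 5 fell and 0 rose (median log2 fold change -0.90), and their summed level was 96715 to 119217 CPM in WT and 47963 to 61219 CPM in OGT-deficient libraries. Of 7 tested cholangiocyte markers 7 rose, from a summed 31.4 to 60.2 CPM to 148 to 258 CPM, and of 8 stellate cell and myofibroblast markers 7 rose, from 88.7 to 296.1 CPM to 664 to 1088 CPM. Of 8 macrophage markers 6 rose (summed 277.6 to 384.0 CPM in WT and 340.04 to 487 CPM in OGT-deficient libraries), and of 6 endothelial markers 2 fell (323.6 to 439 CPM and 190 to 367 CPM). In means, Alb made up 73880 of the 106849 CPM of the hepatocyte sum in WT and 33491 of 55552.5 CPM in OGT-deficient libraries. Spp1 made up 34.5 of the 43.2 CPM of the cholangiocyte sum in WT and 157 of 219 CPM in OGT-deficient libraries. Beside these marker counts, 29.4% of all tested genes fell and 31.6% rose. None of these markers was at 0 in every library. Their part in the falls below was not tested.

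The plot of levels by library shows the 33 members that averaged at least 1 CPM. Levels between genes are compared below only per kilobase of exon.

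**Figure D2:**
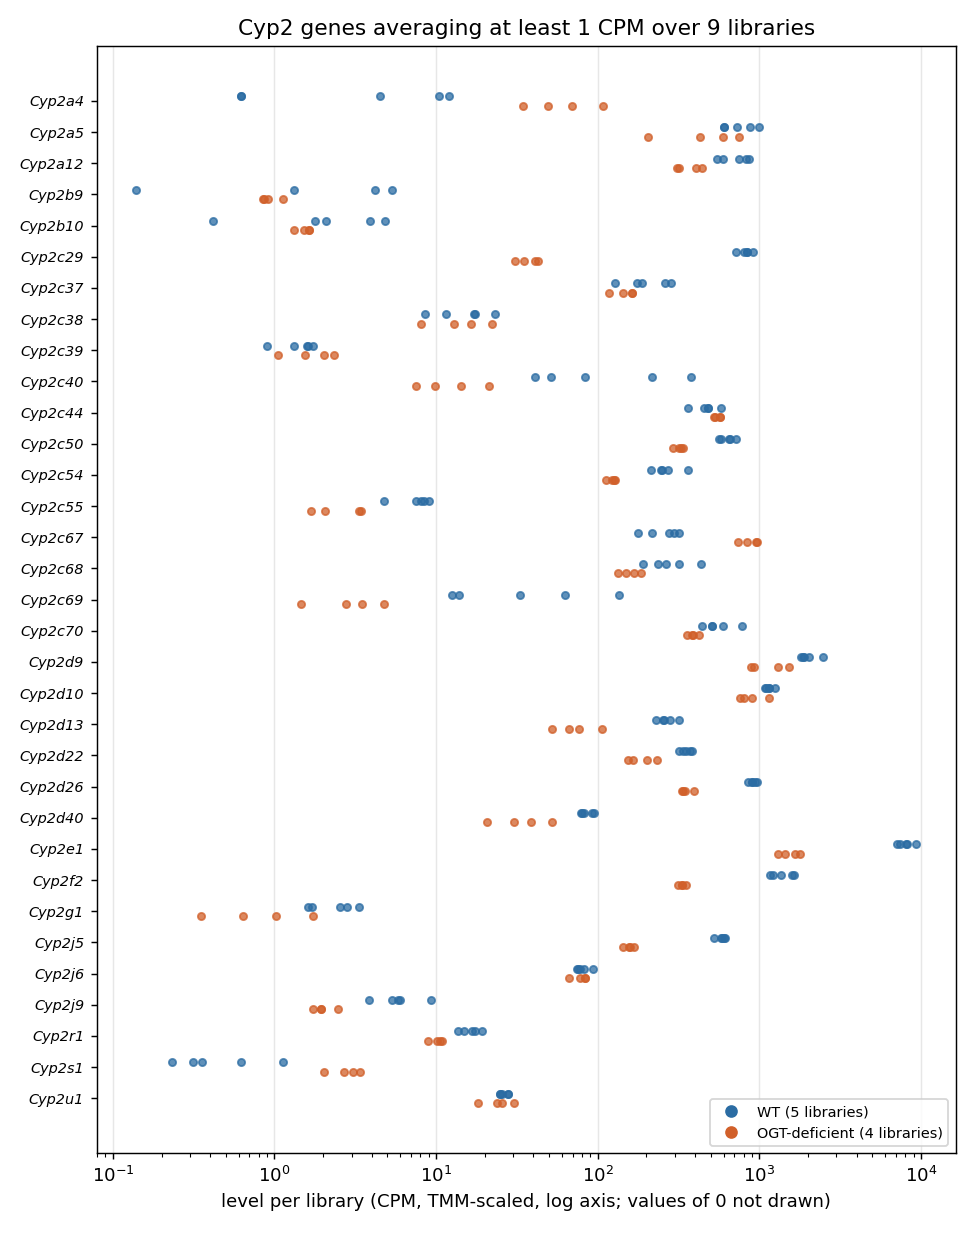
Level in each library (CPM, log axis) of the 33 Cyp2 genes averaging at least 1 CPM, with WT in blue and OGT-deficient in orange and values of 0 left out. Cyp2e1, Cyp2f2, Cyp2c29 and Cyp2j5 show orange points well to the left of blue, and Cyp2a4, Cyp2c67 and Cyp2s1 show the opposite order.

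Cyp2e1 (chr7:140763739-140774987, plus strand) encodes the enzyme that oxidises ethanol, paracetamol and other small molecules in pericentral hepatocytes. It measured 7082, 8177, 7455, 9375 and 8053 CPM in the 5 WT libraries, in order, and 1312, 1787, 1449 and 1657 CPM in the 4 OGT-deficient libraries. Every OGT-deficient library lay far below every WT library, and the fall was 5.18-fold in means (log2 fold change -2.37, SE 0.14, edgeR adjusted p = 4.56e-08). Per kilobase of exon it was the highest member in both groups, at 3720.3 ± 405 CPM per kb in WT and 719 ± 98.2 in OGT-deficient liver. Its shared part was 4.65%. Per kilobase of unshared sequence it ranked 1 in WT and 4 in OGT-deficient liver, at 889 CPM per kb, behind Cyp2c67 (1067), Cyp2d9 (958) and Cyp2d10 (918). Its place behind Cyp2d9 also rests on the length used. Cyp2e1 has 2158 exon bases and a longest transcript of 1833, and Cyp2d9 has 2658 and 1712. For Cyp2c67 and Cyp2d10 both lengths are the same.

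Cyp2f2 (chr7:27119909-27133660, plus strand), known for activating naphthalene in the airway and as a periportal hepatocyte marker, also fell. It stood at 1219.9, 1157, 1363, 1632 and 1584 CPM in WT and 333, 314, 353 and 331 CPM in OGT-deficient libraries, with no overlap (log2 fold change -2.06, SE 0.12, edgeR adjusted p = 5.37e-08). The difference between these 2 falls was not tested. Members known from both liver zones were lower. Beside the counts of zonal genes given next, 29.4% of all tested genes fell and 31.6% rose. Of 11 other pericentral genes 10 fell and 0 rose (median log2 fold change -1.09), among them Glul (-0.72), Cyp1a2 (-1.10), Rgn (-1.57) and Gulo (-0.42). Of 8 tested periportal genes, Cyp2f2 included, 6 fell, 1 rose and 1 did not pass (median -1.13). By mean level the first 4 were Pck1 (-0.04, edgeR adjusted p = 0.880), Arg1 (-1.29), Cyp2f2 and Pigr (-2.96), and the gene that rose was Hsd17b13 (0.55), named after its value was seen.

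The Cyp2c subfamily, whose enzymes oxidise drugs and turn arachidonic and linoleic acid into epoxides and alcohols, held 15 listed and 13 tested genes. Of these 9 fell, 1 rose and 3 did not pass, and the median log2 fold change was -0.87. The subfamily ranged from a log2 fold change of -4.46 for Cyp2c29 to 1.76 for Cyp2c67.

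Cyp2c29 (chr19:39269405-39330713, plus strand), an arachidonic acid epoxygenase known to be inducible by phenobarbital, had the largest fall of the family. It measured 843, 839.7, 714, 914 and 802 CPM in WT and 40.7, 30.9, 42.4 and 34.98 CPM in OGT-deficient libraries. The highest OGT-deficient value was below the lowest WT value by a wide margin, and its shared part was 1.30%. The fall was 22.1-fold in means (edgeR adjusted p = 3.96e-10). Per kilobase it ranked 8 among the members in WT and 20 in OGT-deficient liver, and per kilobase of unshared sequence 12 and 21.

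Cyp2c37, Cyp2c50 and Cyp2c54 are close relatives that also respond to phenobarbital-type inducers. Cyp2c50 went from 654, 721, 559, 582 and 651 CPM to 290.1, 326, 337 and 319 CPM (log2 fold change -0.99, SE 0.10, edgeR adjusted p = 2.51e-06). Cyp2c54, with a shared part of 25.7%, went from 274, 364, 212, 251 and 245 CPM to 112, 127, 123 and 126 CPM (log2 fold change -1.14, SE 0.14, edgeR adjusted p = 1.38e-05). For both the groups did not overlap. Cyp2c37, with a shared part of 30.1%, stood at 174, 284, 128, 189 and 259.7 CPM in WT and 117, 144, 163 and 163 CPM in OGT-deficient libraries. Its groups overlapped, and its call (log2 fold change -0.50, edgeR adjusted p = 0.0468) was lost when any of 6 libraries was left out (WT 2, 4 or 5, or OGT-deficient 1, 2 or 3), with edgeR adjusted p of 0.0527 to 0.123. Summed, the 3 genes stood at 899.5 to 1370 CPM in WT and 519.6 to 623 CPM in OGT-deficient libraries.

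The 4 near-identical genes shown above did not change in 1 direction. Cyp2c67 (chr19:39608842-39649051) was at 177, 277, 218, 319 and 298 CPM in WT and at 739, 950.4, 839.5 and 962 CPM in OGT-deficient libraries, a rise of 3.39-fold in means with no overlap (log2 fold change 1.76, SE 0.16, edgeR adjusted p = 1.55e-06). It ranked 15 per kilobase in WT and 3 in OGT-deficient liver, and per kilobase of unshared sequence 9 and 1. Among its near-copies Cyp2c40 is an arachidonic acid hydroxylase, and Cyp2c40 and Cyp2c69 are known as female-predominant in liver.

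Cyp2c40 (chr19:39767071-39812814) measured 217, 377, 51.3, 40.6 and 84.0 CPM in WT and 7.46, 14.2, 21.2 and 9.87 CPM in OGT-deficient libraries (log2 fold change -3.54, SE 0.65, edgeR adjusted p = 0.000429). Cyp2c69 (chr19:39842814-39886799) measured 62.6, 136, 12.5, 13.9 and 33.0 CPM and 1.45, 3.50, 4.78 and 2.77 CPM (log2 fold change -4.02, SE 0.70, edgeR adjusted p = 0.000311). In both, WT 2 and WT 1 were the highest libraries, WT 5 followed, and WT 3 and WT 4 were the lowest, yet all 5 lay above every OGT-deficient library. WT 1 and WT 2 also had the fewest non-unique alignments per assigned read of the WT libraries, and their part in this order was not tested. Without WT 2 the log2 fold changes were -2.89 and -3.27, and without WT 1 and WT 2, an alternative chosen after seeing the data, they were -2.15 and -2.65, still called. Cyp2c68 (chr19:39688834-39741054) fell less, from 319.8, 436, 237, 190.4 and 266 CPM to 133, 185, 168 and 149.6 CPM, with a narrow gap between the groups (log2 fold change -0.87, SE 0.20, edgeR adjusted p = 0.00235).

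The make-up of this set differed between the groups while its sum overlapped. The 4 genes summed to 776, 1226, 518, 564 and 681 CPM across WT libraries and to 881, 1153, 1034 and 1124 CPM across OGT-deficient libraries, with the highest value in WT 2. Cyp2c67 held 22.6 to 56.5% of that sum in WT, and 81.2 to 85.6% of it among OGT-deficient libraries. Cyp2c40 held 7.21 to 30.8% and 0.847 to 2.05%. Because only reads at distinguishing positions were counted, and those positions are fewer in some of these genes than in others, the shares do not give the true proportions of the transcripts.

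**Figure D3:**
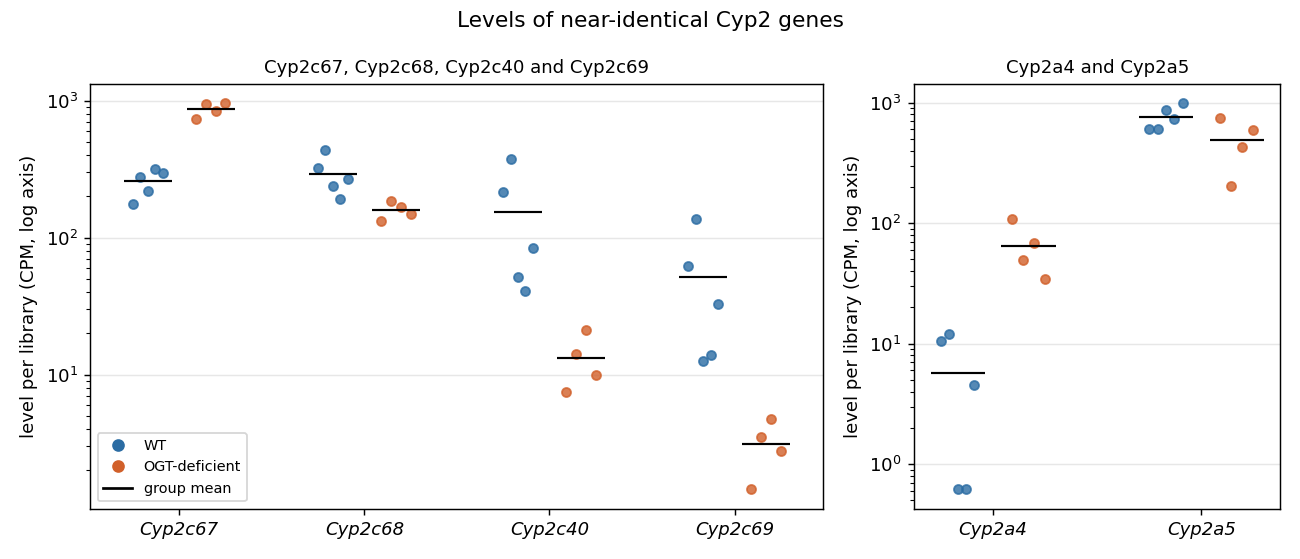
Level in each library (CPM, log axis) of Cyp2c67, Cyp2c68, Cyp2c40 and Cyp2c69 (left) and of Cyp2a4 and Cyp2a5 (right), with WT in blue, OGT-deficient in orange and a line at each group mean. Cyp2c67 and Cyp2a4 are higher in all 4 OGT-deficient libraries, Cyp2c68, Cyp2c40 and Cyp2c69 are lower, and the groups overlap for Cyp2a5.

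The bases before the annotated starts of these 4 genes are also alike, though less so than the coding parts, and they are shown because the 4 genes share this stretch and differ in direction. It was taken from RefSeq promoters (GRCm38.p6), kept to bases before the start, and aligned, with capitals at positions that are not the same in all 4 genes, which includes a base found in Cyp2c68 alone. The RefSeq starts differ, so the stretch ends 1 base before the start of Cyp2c40, 81 before that of Cyp2c67, 33 before that of Cyp2c68 and 31 before that of Cyp2c69.
Cyp2c40 (chr19:39812815-39812963, minus strand): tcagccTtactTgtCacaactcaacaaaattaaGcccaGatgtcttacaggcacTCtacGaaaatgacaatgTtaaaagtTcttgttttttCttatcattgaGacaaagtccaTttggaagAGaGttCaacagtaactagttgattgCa
Cyp2c67 (chr19:39649123-39649271, minus strand): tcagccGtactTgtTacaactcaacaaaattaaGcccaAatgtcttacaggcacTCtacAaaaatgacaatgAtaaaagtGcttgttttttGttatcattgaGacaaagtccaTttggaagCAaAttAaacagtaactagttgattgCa
Cyp2c68 (chr19:39741134-39741283, minus strand): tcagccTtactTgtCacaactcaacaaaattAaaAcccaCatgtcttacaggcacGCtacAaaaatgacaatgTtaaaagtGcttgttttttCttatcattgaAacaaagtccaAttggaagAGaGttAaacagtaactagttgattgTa
Cyp2c69 (chr19:39886800-39886948, minus strand): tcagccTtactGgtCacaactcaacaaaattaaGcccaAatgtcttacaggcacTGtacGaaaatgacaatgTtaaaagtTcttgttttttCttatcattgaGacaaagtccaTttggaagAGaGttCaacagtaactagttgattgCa
Of 149 columns with a base in every gene 18 differed. The HNF4A motif letters caaagtcca are present in all 4.

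RefSeq promoters of 300 bases (250 before and 50 after a start) were matched to 40 of the 48 members, with 42 promoters in all. HNF4A is a nuclear receptor of hepatocyte genes, C/EBP factors bind many liver promoters, and STAT5 carries the growth hormone signal. CAAAGTCCA, searched on both strands, was found in 6 of the 42 (14.3%) and in 0.475% of all 32851 promoters. The 6 belong to the 4 genes above, Cyp2c65 and Cyp2c70, and so include a gene that rose and 4 that fell. TATAAA was found in 21 (50%, against 13.6% of all promoters), TTGCNNAA, a C/EBP motif, in 13 (31.0%, against 10.8%), AGGTCA, the core of nuclear receptor sites, in 13 (31.0%, against 16.3%) and TTCNNNGAA, the STAT5 motif, in 2 (4.76%, against 8.30%). Copies share such letters, overlaps between motifs were not removed, and a match is a description of the sequence only.

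The remaining Cyp2c genes ranged from a fall to no call. Cyp2c70 (chr19:40153353-40187333, minus strand), which makes the muricholic acids of mice, stood at 509.8, 779, 597, 441 and 507 CPM in WT and 359, 421, 384 and 386 CPM in OGT-deficient libraries, without overlap (log2 fold change -0.55, SE 0.14, edgeR adjusted p = 0.00531), and its call was lost with library sizes alone (-0.21, edgeR adjusted p = 0.188). Cyp2c55, better known from the intestine, went from 8.99, 7.48, 8.08, 4.75 and 8.47 CPM to 3.41, 2.07, 3.33 and 1.69 CPM (log2 fold change -1.50, edgeR adjusted p = 0.000139). Both lack any shared part, and in both every OGT-deficient library was lower. Cyp2c44, an epoxygenase, held 480.2, 579, 363, 453 and 483 CPM in WT and 525, 567, 530.0 and 569 CPM in OGT-deficient libraries and did not pass (log2 fold change 0.22, edgeR adjusted p = 0.122). WT 2 was its highest library, and without WT 2 the adjusted p was 0.0266 (log2 fold change 0.30). It was called higher also with upper-quartile factors (0.34) and with library sizes alone (0.56). Per kilobase Cyp2c44 ranked 10 in WT, at 219 ± 35.8 CPM per kb, and 5 in OGT-deficient liver, at 254 ± 10.9, and per kilobase of unshared sequence it ranked 15 and 6.

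Cyp2c38 and Cyp2c39, the latter a retinoic acid hydroxylase, did not pass the test. Cyp2c38 was at 17.1, 23.2, 8.53, 11.6 and 17.4 CPM in WT and 22.2, 8.01, 16.5 and 12.8 CPM in OGT-deficient libraries (log2 fold change -0.07, SE 0.29, edgeR adjusted p = 0.853). Cyp2c39 was at 1.73, 1.62, 1.32, 0.902 and 1.58 CPM and 2.34, 1.06, 2.02 and 1.54 CPM (log2 fold change 0.27, SE 0.26, edgeR adjusted p = 0.377). The groups overlapped for both, and in both OGT-deficient 1 was the highest and OGT-deficient 2 the lowest of its group. Cyp2c65 had too few counts for the test, at 0 to 0.0840 CPM in WT and 0.101 to 0.367 CPM in OGT-deficient libraries, and Cyp2c66 had no count in any library.

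The Cyp2a genes, on chromosome 7, encode steroid and coumarin hydroxylases. Of the 4 tested genes 1 rose, 1 fell and 2 did not pass, and each of the 4 has a shared part over 20%. Cyp2a4, a testosterone hydroxylase known as female-predominant, had the largest rise of the family. It measured 10.5, 12.1, 0.617, 0.624 and 4.50 CPM in WT and 107, 49.2, 68.8 and 34.6 CPM in OGT-deficient libraries. The WT libraries again ran in the order seen for Cyp2c40, with WT 2 and WT 1 highest and WT 3 and WT 4 lowest, and none reached the OGT-deficient range. The rise was 11.5-fold in means (log2 fold change 3.47, SE 0.66, edgeR adjusted p = 0.000568), and the log2 fold change was 5.03 without WT 1 and WT 2.

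Its near-copy Cyp2a5, the coumarin 7-hydroxylase, did not rise with it. It stood at 608, 602, 873, 726 and 994 CPM in WT and 745, 204, 426 and 592 CPM in OGT-deficient libraries, which overlapped (log2 fold change -0.63, SE 0.29, edgeR adjusted p = 0.0780). The widest spread lay within the OGT-deficient group, and without OGT-deficient 1, its highest library, the fall was called (log2 fold change -0.91, edgeR adjusted p = 0.0190). Of the sum of the 2 genes, Cyp2a4 held 0.0707 to 1.97% among WT libraries and 5.53 to 19.4% among OGT-deficient ones. The stretches before their starts, again with capitals at the differences and taken from RefSeq (GRCm38.p6), differ at 3 of 150 positions and are shown because the 2 genes separate in level.
Cyp2a4 (chr7:26307009-26307158, plus strand): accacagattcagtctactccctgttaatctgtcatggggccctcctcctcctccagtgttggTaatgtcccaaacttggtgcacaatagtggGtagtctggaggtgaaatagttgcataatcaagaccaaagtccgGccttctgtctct
Cyp2a5 (chr7:26835155-26835304, plus strand): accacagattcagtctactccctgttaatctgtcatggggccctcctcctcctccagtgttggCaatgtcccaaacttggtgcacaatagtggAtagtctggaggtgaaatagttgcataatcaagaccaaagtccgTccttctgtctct
Cyp2a12, a steroid hydroxylase with a shared part of 20.4%, fell from 824, 594, 863, 545 and 748 CPM to 404, 308, 317 and 439 CPM without overlap (log2 fold change -0.96, SE 0.16, edgeR adjusted p = 0.000192). Its close relative Cyp2a22 was low throughout, at 0.0641 to 2.81 CPM in WT and 0.0245 to 1.39 CPM in OGT-deficient libraries (edgeR adjusted p = 0.809).

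The Cyp2b genes, the classical phenobarbital-inducible P450s, were barely expressed in either group. Cyp2b10, the standard target gene of CAR, was at 3.89, 4.85, 2.08, 0.416 and 1.79 CPM in WT and 1.64, 1.64, 1.52 and 1.32 CPM in OGT-deficient libraries (log2 fold change -0.77, SE 0.45, edgeR adjusted p = 0.157). Cyp2b9, which is female-predominant, was at 5.30, 4.20, 0, 0.139 and 1.31 CPM and 0.843, 0.907, 1.12 and 0.857 CPM (log2 fold change -1.22, SE 0.83, edgeR adjusted p = 0.218). Neither passed the test. In both, WT 1 and WT 2 were above all other libraries and the OGT-deficient libraries lay within the WT range. Without WT 1 and WT 2 the signs turned, to log2 fold changes of 0.08 for Cyp2b10 and 0.87 for Cyp2b9, neither called, and without WT 4, its lowest library, Cyp2b10 was called lower (-1.03, edgeR adjusted p = 0.0100). Cyp2b13 and Cyp2b19 had too few counts to test, and Cyp2b23 had none.

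Of 8 tested Cyp2d genes, which oxidise many basic drugs and steroids, 7 fell and 1 did not pass, with a median log2 fold change of -0.90. Cyp2d9, a male-predominant testosterone hydroxylase with a shared part of 27.9%, went from 1878, 1800.4, 1869, 2470.5 and 2033 CPM to 885, 1312, 922 and 1536 CPM (log2 fold change -0.79, SE 0.17, edgeR adjusted p = 0.00135). Cyp2d26, with a shared part of 10.5%, went from 938, 902, 899, 969.7 and 849 CPM to 338, 346, 332 and 393 CPM (log2 fold change -1.37, SE 0.09, edgeR adjusted p = 9.52e-08). The groups did not overlap for either, and the WT values of Cyp2d26 were among the tightest in the family. Per kilobase Cyp2d9 ranked second of the members in WT, at 756 ± 102 CPM per kb, followed by Cyp2d10 at 696 ± 39.1 and Cyp2f2 at 687 ± 105. Per kilobase of unshared sequence the order was the same but the levels lay further apart, at 1655, 1169 and 745.5 CPM per kb. The wider spacing does not come from shared sequence alone. Cyp2d9 has 2658 exon bases but a longest transcript of 1712, Cyp2f2 has 2025 and 1866, and Cyp2d10 has 1648 in both.

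Cyp2d22 fell from 353, 316, 383, 374 and 338 CPM to 154, 202, 165 and 232 CPM (log2 fold change -0.91, SE 0.12, edgeR adjusted p = 3.62e-05). Cyp2d40 fell from 79.6, 82.3, 79.2, 95.4 and 92.1 CPM to 20.8, 38.8, 30.2 and 52.0 CPM (log2 fold change -1.27, SE 0.20, edgeR adjusted p = 0.000148). Across Cyp2d9, Cyp2d10, Cyp2d22, Cyp2d26 and Cyp2d40, OGT-deficient 4 held the highest value of its group. Cyp2d13, a transcribed pseudogene in RefSeq, went from 230.3, 256, 254, 281 and 319 CPM to 51.9, 66.1, 106 and 76.2 CPM, the largest fall of the subfamily (log2 fold change -1.84, SE 0.18, edgeR adjusted p = 2.67e-06), and its shared part was not computed.

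Cyp2d10 and Cyp2d11 share much of their sequence with each other (37.1% and 36.7% with any listed gene) and lost their calls in several alternatives. Cyp2d10 stood at 1088, 1249.6, 1097, 1148 and 1149.6 CPM in WT and 754.9, 897, 803 and 1143 CPM in OGT-deficient libraries, where OGT-deficient 4 lay inside the WT range (log2 fold change -0.35, SE 0.12, edgeR adjusted p = 0.0226). Its call was lost without WT 2, OGT-deficient 1 or OGT-deficient 3 (edgeR adjusted p = 0.0512, 0.0547 and 0.0724) and with library sizes alone (log2 fold change -0.02, edgeR adjusted p = 0.883). Cyp2d11 was at 0.406 to 0.775 CPM in WT and 0.152 to 0.465 CPM in OGT-deficient libraries (edgeR adjusted p = 0.0398), and lost its call without WT 2, WT 4, WT 5, OGT-deficient 1 or OGT-deficient 3 (edgeR adjusted p from 0.0661 to 0.122). Cyp2d12, at 0.363 to 1.28 CPM in WT and 0.731 to 1.10 CPM in OGT-deficient libraries, did not pass (log2 fold change 0.63, edgeR adjusted p = 0.141). Without WT 5, its highest library, it was called higher (1.07, edgeR adjusted p = 0.00411). Cyp2d34 had no count in any library.

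The Cyp2j genes on chromosome 4, which encode arachidonic acid epoxygenases, hardly share sequence, with shared parts of at most 0.857%. Cyp2j5 (chr4:96628773-96664154, minus strand), the abundant liver and kidney form, fell from 525, 605, 582, 584 and 609.8 CPM to 144, 166, 156 and 158 CPM (log2 fold change -1.90, SE 0.08, edgeR adjusted p = 6.54e-09). Its libraries were close together within each group and far apart between groups. Cyp2j9 fell from 3.87, 5.94, 5.36, 9.26 and 5.81 CPM to 1.73, 1.94, 1.94 and 2.47 CPM, also without overlap (log2 fold change -1.55, SE 0.23, edgeR adjusted p = 8.07e-05). Cyp2j6, by contrast, stood at 74.7, 77.8, 75.2, 82.5 and 93.1 CPM in WT and 83.1, 77.6, 66.6 and 83.2 CPM in OGT-deficient libraries, which overlapped (log2 fold change -0.05, SE 0.09, edgeR adjusted p = 0.629). With library sizes alone it was called higher (0.28, edgeR adjusted p = 0.0192). Cyp2j8 was at no more than 0.277 CPM, and Cyp2j11, Cyp2j12 and Cyp2j13 had no count.

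The single-gene subfamilies moved in different directions. Cyp2r1, the main vitamin D 25-hydroxylase of liver, fell from 14.9, 19.3, 13.7, 16.8 and 17.5 CPM to 8.89, 10.2, 10.9 and 10.6 CPM without overlap (log2 fold change -0.70, SE 0.11, edgeR adjusted p = 0.000173). Cyp2u1, a fatty acid hydroxylase known as male-predominant in liver, was at 25.4, 28.0, 25.0, 28.0 and 24.9 CPM and 18.1, 25.6, 30.4 and 23.9 CPM and did not pass (log2 fold change -0.10, SE 0.12, edgeR adjusted p = 0.504). Cyp2s1 (chr7:25802475-25816913, minus strand), best known from epithelia outside the liver, was low but rose from 0.619, 0.231, 1.12, 0.312 and 0.358 CPM to 3.06, 2.02, 3.37 and 2.69 CPM without overlap (log2 fold change 2.30, SE 0.36, edgeR adjusted p = 0.000130). It has no shared part, and it rose in the libraries in which the cholangiocyte markers given above rose, whose part in it was not tested. Cyp2g1, an olfactory P450, was at 3.31, 1.62, 2.55, 1.70 and 2.80 CPM in WT and 1.73, 0.353, 1.03 and 0.636 CPM in OGT-deficient libraries, with OGT-deficient 1 inside the WT range (log2 fold change -1.30, SE 0.37, edgeR adjusted p = 0.00896). Cyp2t4 had too few counts to test, and Cyp2w1 had none.

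In all, 12 members were not tested. Of these 7 had no count in any library, and the other 5 did not exceed 0.393 CPM in any library. A level of up to about 3 expected counts per library, or 0.0571 to 0.104 CPM, can give 0 by sampling alone. Falls were seen with and without near-identical copies. Of 22 tested members with a shared part of 20% or less, 13 fell and 1 rose (median log2 fold change -0.95), and of 13 with more, 9 fell and 2 rose (-0.79), while Cyp2d13 has no value of the shared part. The rise of Cyp2c67 and that of Cyp2a4 are both in the latter set.

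**Figure D4:**
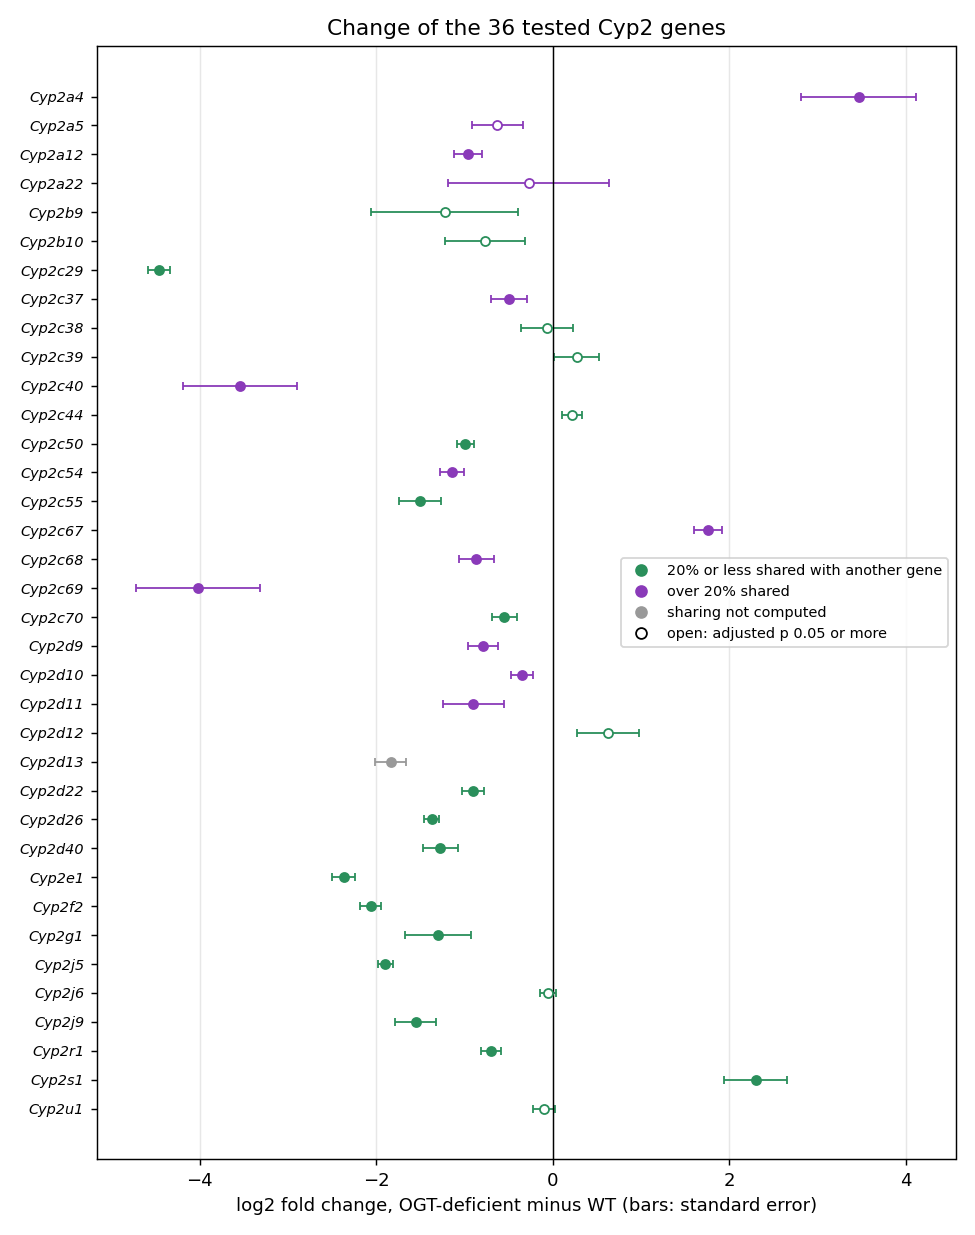
Log2 fold change (OGT-deficient minus WT) of the 36 tested Cyp2 genes with its standard error, coloured by the part of the transcript shared with another listed gene. Open circles did not pass at an adjusted p of 0.05. Points lie to the left for Cyp2c29, Cyp2c69, Cyp2c40 and Cyp2e1 and to the right for Cyp2a4, Cyp2s1 and Cyp2c67.

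Genes known for sex-dependent expression moved in both directions. Of 10 female-predominant P450 genes, 5 of which belong to family 3 or 17, 6 were tested: Cyp2a4 and Cyp3a44 rose, Cyp2c40, Cyp2c69 and Cyp17a1 fell, and Cyp2b9 did not pass. Cyp3a44 was barely detected, with 0 to 20 counts in WT and 24 to 27 counts in OGT-deficient libraries. Its call was close to the threshold (log2 fold change 1.28, edgeR adjusted p = 0.0464). Of 5 male-predominant genes Cyp2d9 and Cyp4a12b fell, and Cyp7b1, Cyp4a12a and Cyp2u1 did not pass, with log2 fold changes of -0.28, 0.22 and -0.10. The Y-linked gene Ddx3y was present in all 9 libraries. It stood at 77.3 to 91.1 CPM in WT and 55.4 to 60.9 CPM in OGT-deficient libraries. Xist, which female cells express, did not exceed 1.13 CPM, so each library had the pattern of male tissue. Of 10 growth hormone and sex-dependent regulators 3 fell, 0 rose and 7 did not pass (median log2 fold change -0.24), and 29.4% of all tested genes fell, so this count is near the background. Those that fell were the growth hormone receptor gene Ghr (-0.88), the growth hormone target gene Igf1 (-0.64) and the signal transducer gene Stat5b (86.0 ± 8.72 to 69.4 ± 4.86 CPM, log2 fold change -0.31, edgeR adjusted p = 0.00926). Cish, a direct STAT5 target, was at 44.0 ± 17.1 and 37.1 ± 22.6 CPM and did not pass.

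Partners and regulators of these enzymes fell in part. Por, the reductase that serves all of these enzymes, went from 748, 674, 819, 871 and 637 CPM to 203, 168, 203 and 221 CPM (log2 fold change -1.92, SE 0.12, edgeR adjusted p = 8.51e-08), so its fall lay within the range seen for the members. Of 9 electron transfer and heme supply genes 5 fell, 1 rose and 3 did not pass (median log2 fold change -0.40), against 29.4% lower and 31.6% higher among all tested genes. Cyb5a fell by 0.50 and Cyb5r3 fell by 0.40 on the log2 scale, Pgrmc1 did not pass (-0.05), and the heme oxygenase gene Hmox1, named after its value was seen, rose by 0.67.

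Of 20 receptors and transcription factors that act on liver P450 genes 13 fell, 1 rose and 6 did not pass (median log2 fold change -0.67). Among all tested genes the shares were 29.4% lower and 31.6% higher. Nr1i3, the gene of CAR, had the largest fall of the list, from 95.2, 115, 98.4, 135 and 139 CPM to 19.5, 8.69, 20.4 and 13.9 CPM without overlap (log2 fold change -2.89, SE 0.23, edgeR adjusted p = 5.55e-07). Nr1i2, the gene of PXR, stood at 70.4, 76.3, 86.2, 81.4 and 65.9 CPM and 81.9, 56.8, 72.0 and 99.2 CPM and did not pass (log2 fold change 0.03, SE 0.14, edgeR adjusted p = 0.877). The 2 receptors share many target genes, and only the CAR gene was called here. The difference between them was not tested. Exons of other listed genes, on either strand, cover 74.9% of the exon bases of Nr1i3 and 0% of those of Nr1i2. The strand setting is not known, and the part of this overlap in the counts of Nr1i3 was not tested. Hnf4a went from 690.1 ± 91.3 to 497 ± 65.4 CPM (SD, n = 5 and 4) and its groups overlapped (log2 fold change -0.47, edgeR adjusted p = 0.00420). Cebpa fell by 0.90, Rxra, the partner of CAR and PXR, fell by 0.61 and Ppara fell by 0.83 on the log2 scale. The gene that rose was Nfe2l2 (0.27), named after its value was seen.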

How the data were processed

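RNA of mouse liver tissue was measured in 5 WT and 4 OGT-deficient libraries. The authors deposited whole-number read counts per gene symbol, without normalization. TopHat2 2.1.0, HTSeq 0.9.1 and build GRCm38 are named in the submitters' processing notes, while the sources used here do not give the annotation release, strand setting or read length. No gene overlaps more than 4.64% of a matched member's exons. HTSeq summary lines entered neither library sizes nor tests. Of uniquely aligned reads 8.95 to 10.7% fell outside genes and 1.78 to 2.17% on several genes. Counts were filtered with filterByExpr, scaled by TMM and tested in edgeR 4.0.16 (R 4.3.3) with the quasi-likelihood F test on group alone and Benjamini-Hochberg adjustment over all 14104 tested genes. A prior count of 2 enters log2 values, and SE is the log2 fold change divided by the square root of F. P-values measure the spread between these libraries. All 16 pairs of libraries within groups differed beyond sampling noise (chi-square per degree of freedom 23.9 to 135). The fit was tested on simulated data.

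The members, the gene lists, the motifs and the rule for named genes (every member, with values per library from a mean of 1 CPM, and of each list the counts, up to 4 genes by mean level and Nr1i2, Nr1i3, Por, Hnf4a and Stat5b) were chosen with earlier results of these data known. Members were matched to GENCODE mouse release 21 (47 of 48), and the lengths and shared 50-base stretches come from its transcripts. Coding sequences and upstream stretches were aligned with MAFFT. Alternatives were other scalings (DESeq2 size factors, upper-quartile factors, library sizes alone, the 30 most abundant genes left out), other filters, DESeq2 1.42.0, limma voom (limma 3.58.1), the replicate number as a block, each library left out, WT 1 and WT 2 left out together (added after seeing the data) and members with large shared parts left out.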

Additional observations from a re-analysis of the deposited data

Results flagged for a closer look

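In 2 of 72 group-and-gene sets a single library stood apart from the rest of its group by the size of its gap relative to the group's range, where chance gives about 1 in 20. Cyp2a22 measured 2.81 CPM in WT 2, while the other WT libraries were at 0.0641 to 0.417 CPM. Cyp2d12 measured 1.28 CPM in WT 5, while the other WT libraries were at 0.363 to 0.520 CPM. Both genes averaged under 1 CPM, and neither was called.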

How the results depend on the processing

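Of the 26 called members 22 kept call and direction in every alternative that tested them, and 0 changed sign; Cyp2c37, Cyp2c70, Cyp2d10 and Cyp2d11 lost their calls in some. With upper-quartile factors 4 members rose and 20 fell, and the median of all genes moved by 0.12 on the log2 scale (62.5% of calls higher, against 51.8%). With library sizes alone it moved by 0.34 (78.5% higher), 7372 genes rose and 2014 fell, 6 members rose and 19 fell, and the median of members was -0.55 against 0.36 for all genes. With no low-count filter 5 members rose, Cyp2b19 and Cyp2c65 in addition. Leaving out members with large shared parts left 1 that rose and 13 that fell, because fewer are counted. Leaving out 1 library gave 3 to 4 members higher and 20 to 23 lower, and 4077 to 4392 genes higher and 3798 to 4131 lower.

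The replicate block gave 4 members higher and 21 lower (4109 and 3760 of all genes). Whether the numbers pair the mice is not stated. The correlations were taken on deviations of each gene's log2 level from its group mean, not on the levels. In these deviations same-numbered libraries correlated at -0.103 to 0.104, with 1 of 4 pairs over 0.1. Of the 4 OGT-deficient libraries 1 correlated best with its own number. So few pairs cannot settle whether mice were paired. In all, 6 uncalled members changed sign in some alternative, and the cause was not tested. Cyp2a22 was at 0.0954 with library sizes alone, 0.202 with the block, 1.05 without WT 1 and WT 2, and -0.97 to 1.35 with 1 library left out. Cyp2c38 was at 0.0588 with upper-quartile factors, 0.295 with library sizes alone, 0.00357 with the block, 0.245 without WT 1 and WT 2, and -0.34 to 0.13 with 1 library left out. Cyp2j6 was at 0.0670 with upper-quartile factors, 0.285 with library sizes alone, and -0.11 to 0.0144 with 1 library left out. Cyp2u1 was at 0.0223 with upper-quartile factors, 0.238 with library sizes alone, and -0.22 to 0.00490 with 1 library left out. Cyp2b9 was at 0.410 with limma voom and 0.870 without WT 1 and WT 2, and Cyp2b10 at 0.0779 without those libraries. Depth limits the members under 1 CPM, for which 3 counts are 0.0571 to 0.104 CPM.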

Other observations

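Cyp2d37-ps and Cyp2c53-ps, pseudogenes whose symbols the rule leaves out, were also lower, and no count over all such pseudogenes was made. Cyp2d37-ps stood at 25.7, 33.1, 34.4, 37.1 and 44.4 CPM in WT and 8.14, 7.46, 11.5 and 9.99 CPM in OGT-deficient libraries (log2 fold change -1.91, SE 0.16, edgeR adjusted p = 1.07e-06), close to Cyp2d13 (-1.84). Cyp2c53-ps had 14 to 35 counts in each WT library and 0 in every OGT-deficient library. A level of up to about 3 expected counts per library, or 0.0571 to 0.0756 CPM, can give 0 by sampling alone. Both were chosen after their values were seen.

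The Cyp3a and Cyp4 genes had median log2 fold changes of opposite sign. Of 9 listed Cyp3a genes, whose enzymes oxidise many drugs, 5 were tested, and 3 rose and 2 fell (median 0.68). Their summed level was 2996 to 5243 CPM in WT and 4549 to 5994 CPM in OGT-deficient libraries. Of 20 listed Cyp4 genes, mostly fatty acid hydroxylases, 15 were tested, and 9 fell and 3 rose (median -0.75). Their summed level was 1492 to 2253 CPM in WT and 1047 to 1501 CPM in OGT-deficient libraries. Of all tested genes 29.4% fell and 31.6% rose. The summed groups overlapped in both, unlike those of family 2. The Cyp4 median lay near that of the tested family 2 members (-0.88), and the difference between families was not tested.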
